A study of Homo sapiens with 10 samples.

Results

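Genes that supply amino acids and that serve as known targets of the transcription factor ATF4 were followed across an RNA-seq study of ABL kinase blockade in lung adenocarcinoma cells. The set held 42 genes of the 23234 listed in all 5 tables of the study, matched by exact gene symbol. By role they were 13 stress factors, 12 amino acid enzymes, 6 amino acid transporters and 11 tRNA synthetases.

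When amino acids run short, or when unfolded protein builds up in the endoplasmic reticulum, kinases phosphorylate the translation factor eIF2. General translation then slows while the ATF4 messenger is translated more, so much of the control of ATF4 lies above its transcript level. ATF4 pairs with C/EBP proteins on a short composite element and raises genes that make, import and charge amino acids, together with stress genes such as DDIT3 and TRIB3. In tumour cells this programme is known for keeping up growth when nutrients are scarce.

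The study holds 10 libraries of 3 cell lines with 1 library per group, so that no group has a replicate. GNF5, an allosteric inhibitor of the kinases ABL1 and ABL2, was given for 72 h to PC9 at 10 mM, to PC9M at 20 mM and to H358 at 10 mM, each dose as written in the labels, and each GNF5 library has a DMSO library of the same line beside it. ABL1/ABL2 shRNAs were set against scrambled shRNA in PC9 and in PC9M, all 4 transduced cultures with polybrene at 8 µg/mL. PC9 and H358 are established lines of lung adenocarcinoma, and PC9M is labelled as a line with more metastasis to bone and brain. All cultures grew in RPMI medium with serum, pyruvate and glucose, and neither the number of shRNAs nor the time after transduction is given in the sources used here. Because the GNF5 dose in PC9M was not that in the other lines, line and dose cannot be told apart there.

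The ABL1 transcript, which encodes the first target of the shRNAs, was at 3.97 FPKM with the ABL1/ABL2 shRNAs against 24.9 with scrambled shRNA in PC9, and at 3.56 with the ABL1/ABL2 shRNAs against 10.5 with scrambled shRNA in PC9M. ABL2 was at 1.87 FPKM with the ABL1/ABL2 shRNAs against 7.88 with scrambled shRNA in PC9, and at 3.03 with the ABL1/ABL2 shRNAs against 5.22 with scrambled shRNA in PC9M. Both targets were lower in the knockdown library of each line. FPKM is fragments per kilobase of transcript, scaled to the number of mapped fragments, and every library held between 11268 and 12773 genes at 1 FPKM or more. The epithelial marker EPCAM lay between 173 and 543 FPKM over the 10 libraries. The lung factor NKX2-1 was at 46.3 FPKM with GNF5 and 92.1 with DMSO in H358 and at most 0.0206 in the 8 other libraries. The surfactant gene SFTPC was at most 0.0429 FPKM in any library. SFTPB, another surfactant gene, was at 3.95 FPKM with GNF5 and 15.2 with DMSO in PC9 and at most 0.197 in the 8 other libraries. The lung protease NAPSA was at 4.73 FPKM with GNF5 and 9.47 with DMSO in H358, at 1.23 with GNF5 and 1.37 with DMSO in PC9, and at most 0.417 elsewhere. Of 9 markers of other cell types, the endothelial genes PECAM1 (up to 23.2 FPKM) and CDH5 (up to 10.4) were highest in PC9 libraries, while the leukocyte gene PTPRC was at most 0.104 FPKM. In bulk RNA, fewer cells that express a gene and less of its RNA per cell cannot be told apart.

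The element that ATF4 and C/EBP proteins are known to bind was looked for in the members' promoters, since these are the bases through which the set is thought to be tied together. The windows ran from 250 bases before to 50 bases after each start, from RefSeq on GRCh38.p14, and 36 of the 42 members had a window. NUPR1, PSPH, SHMT2, PYCR1, GPT2 and YARS had none. The motif searched was TGATGNAA and its reverse complement TTNCATCA on both strands, where N is any base. A match stood in the windows of 15 of the 36 members, which is 41.7%, against 571 of 15842 protein-coding genes, which is 3.60%. Members were picked as known ATF4 targets, so their share is no independent evidence of ATF4 control. By role the motif stood in 7 of 10 tRNA synthetases, 4 of 6 transporters, 3 of 12 stress factors and 1 of 8 amino acid enzymes. It was found in 0 of the 6 other cytosolic tRNA synthetase genes that had a window and in 1 of 14 mitochondrial ones. Outside the set it also stood in 4 of 14 other ATF4 targets, which is 28.6%. It stood in 2 of 16 other amino acid enzymes, 2 of 14 other amino acid transporters and 1 of 15 eIF2 pathway genes. Scaffold proteins of the synthetase complex had it in 0 of 3. These counts describe the windows, and nothing follows from them about binding.

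Stretches of 30 bases around the match are given for 6 members, 5 of them at least 2-fold apart in a GNF5 pair and GARS as the highest synthetase, on the strand of the gene, with the 8 matching bases in capitals. For CHAC1 the match began at base -209 from the start, for ASNS at -68, for SLC1A4 at -7, for MARS at -4, for IARS at -13 and for GARS at -33.
CHAC1: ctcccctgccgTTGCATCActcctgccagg
ASNS: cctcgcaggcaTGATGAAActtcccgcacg
SLC1A4: gcggctcccgtTTGCATCAtctccagccgg
MARS: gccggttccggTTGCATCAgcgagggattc
IARS: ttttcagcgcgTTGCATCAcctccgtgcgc
GARS: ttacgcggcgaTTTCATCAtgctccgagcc
The stretches of CHAC1, SLC1A4, MARS and IARS carry the same 8 bases, TTGCATCA. ASNS carries TGATGAAA and GARS carries TTTCATCA, which is the reverse complement of the ASNS match. The sequence outside the capitals differs from gene to gene.

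With GNF5 the set stood on opposite sides in the PC9 and PC9M lines. In PC9, 33 of 42 members were lower with GNF5 than with DMSO and 9 were higher, where 57.0% of all genes were lower. In PC9M, 39 of 42 were higher with GNF5 and 3 were lower, where 42.3% of all genes were higher. In H358, 30 of the 41 members that reached 1 FPKM in either library were higher and 11 were lower, where 25.5% of all genes were higher. Ratios are log2 of (FPKM + 1), GNF5 over DMSO, a scale that understates the change of low genes. The median over members was -0.72 for PC9, 0.72 for PC9M and 0.16 for H358, beside -0.10, -0.06 and -0.19 over all genes at 1 FPKM or more in either library of the pair.

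A 2-fold difference is used here as a description of size, since 1 library per group allows no test within a pair. It is always taken on FPKM + 1, and members close to the limit can pass 2-fold on FPKM itself. In PC9, 14 of 42 members were at least 2-fold lower with GNF5, where 6.83% of all genes were, and 0 were at least 2-fold higher, where 5.17% of all genes were. In PC9M, 12 of 42 were at least 2-fold higher with GNF5, where 1.58% of all genes were, and 0 were at least 2-fold lower, where 1.81% were. In H358, 0 of 41 were at least 2-fold higher or lower, where 1.12% of all genes were higher and 2.40% lower. Centring each pair on the median of all genes gave 1 higher and 13 lower in PC9, 13 higher and 0 lower in PC9M, and 3 higher and 0 lower in H358. The H358 count rests on members close to the limit, with DDIT3 at 0.99 just below it. In PC9, TRIB3 at -1.07 lay just past the limit and PSPH at -0.98 just short of it. In PC9M, CTH at 1.03 lay just past it and GARS at 0.98 just short.

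In all, 8 members were at least 2-fold lower in PC9 and at least 2-fold higher in PC9M with GNF5: TRIB3, CHAC1, SESN2 and STC2 among the stress factors, and PSAT1, PCK2, CTH and CBS among the enzymes. Over all 11156 genes measured in both pairs 26 did so, or 0.233%. At any size, 30 of 42 members were lower in PC9 and higher in PC9M, against 21.4% of all genes. The 12 exceptions were ATF4, ATF3, ATF5, DDIT4, NUPR1, CEBPB, VLDLR, PSPH, ALDH18A1, PYCR1, SLC7A5 and YARS. Across the 42 members the PC9 and PC9M ratios had a Pearson r of -0.12 and a Spearman rho of -0.17, given as a description over genes. The ratios of each line come from a table and a pair of libraries of their own.

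**Figure D1:**
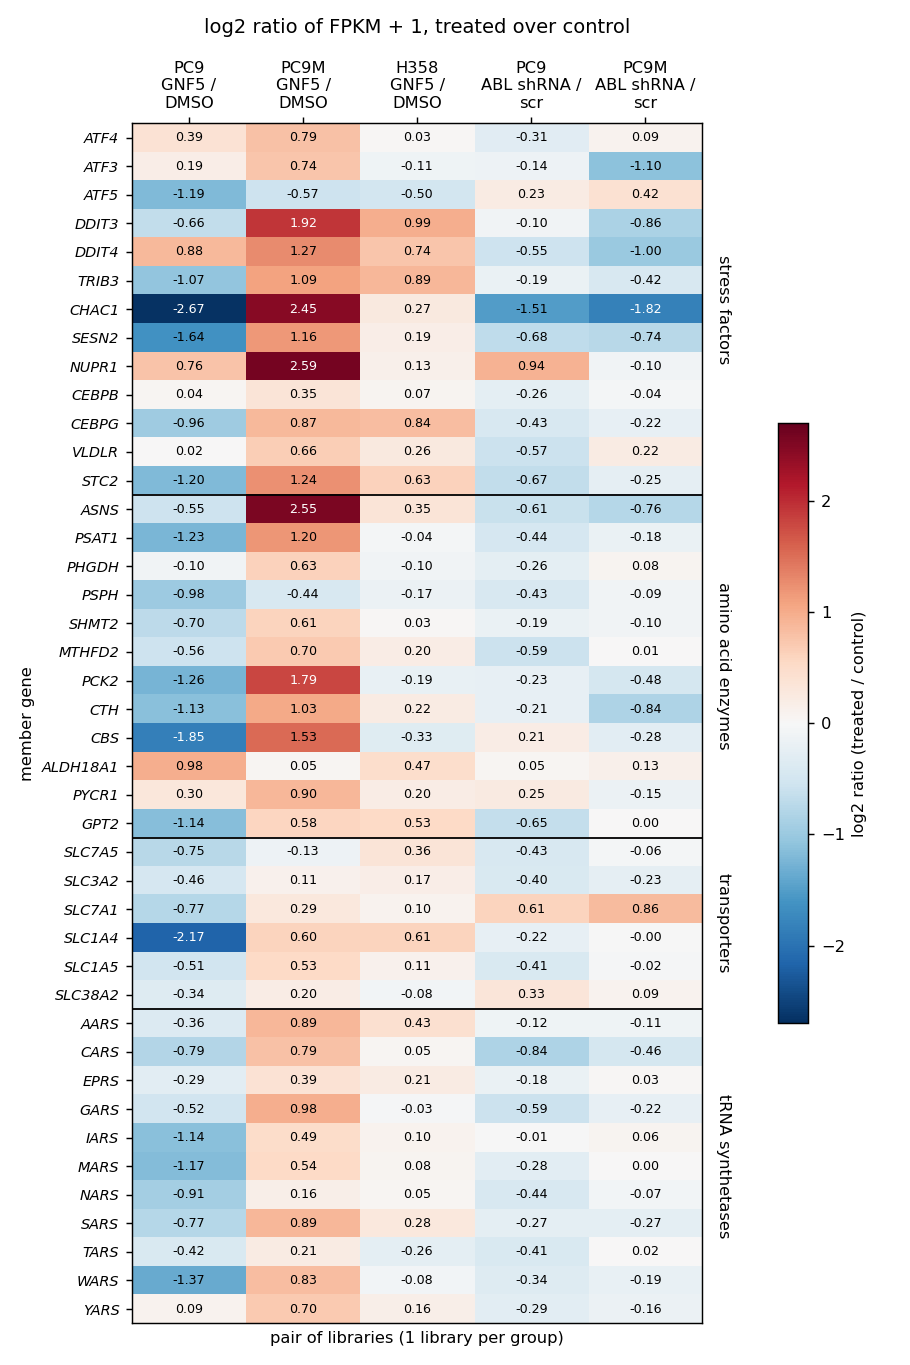
Log2 ratio of (FPKM + 1) for the 42 members (rows, by role) in the 5 pairs of libraries (columns), treated over control; "scr" is scrambled shRNA, red is higher and blue is lower in the treated library. The PC9 GNF5 column is mostly blue and the PC9M GNF5 column mostly red, with CHAC1 at -2.67 and 2.45.

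Among the stress factors, the transcript of ATF4 itself was abundant in all 10 libraries. ATF4 was at 445 FPKM with GNF5 against 338 with DMSO in PC9, 506 with GNF5 against 291 with DMSO in PC9M, and 439 with GNF5 against 431 with DMSO in H358. ATF4 in the shRNA pairs was at 131 FPKM with the ABL1/ABL2 shRNAs against 163 with scrambled shRNA in PC9, and 274 with the ABL1/ABL2 shRNAs against 257 with scrambled shRNA in PC9M. ATF4 therefore differed by less than 2-fold in each pair, with log2 ratios of 0.39 for PC9, 0.79 for PC9M and 0.03 for H358 with GNF5. Its locus is listed at chr22:38246515-38248637 (hg18). It was the member with the highest mean level in its role group, and it was not lower with GNF5 in PC9, where most of its listed targets were.

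CHAC1, an enzyme that breaks down glutathione and a marker of late ATF4 signalling, is listed at chr15:39032928-39036009 (hg18) and had the widest range of ratios in the set. CHAC1 was at 5.61 FPKM with GNF5 against 41.2 with DMSO in PC9, 9.41 with GNF5 against 0.906 with DMSO in PC9M, and 38.8 with GNF5 against 32.0 with DMSO in H358. CHAC1 in the shRNA pairs was at 2.19 FPKM with the ABL1/ABL2 shRNAs against 8.07 with scrambled shRNA in PC9, and 1.33 with the ABL1/ABL2 shRNAs against 7.23 with scrambled shRNA in PC9M. Its log2 ratios were -2.67 for PC9, 2.45 for PC9M and 0.27 for H358 with GNF5, and -1.51 for PC9 and -1.82 for PC9M with the shRNAs. CHAC1 was thus at least 2-fold lower in 3 pairs and at least 2-fold higher in 1, and the PC9M DMSO library, at 0.906 FPKM, was the lowest of the 10.

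DDIT3, also called CHOP, is a pro-apoptotic factor downstream of ATF4. DDIT3 was at 36.5 FPKM with GNF5 against 58.2 with DMSO in PC9, 15.2 with GNF5 against 3.28 with DMSO in PC9M, and 59.3 with GNF5 against 29.3 with DMSO in H358. DDIT3 in the shRNA pairs was at 13.1 FPKM with the ABL1/ABL2 shRNAs against 14.0 with scrambled shRNA in PC9, and 2.96 with the ABL1/ABL2 shRNAs against 6.2 with scrambled shRNA in PC9M. Its log2 ratios were -0.66 for PC9, 1.92 for PC9M and 0.99 for H358 with GNF5, and -0.10 for PC9 and -0.86 for PC9M with the shRNAs. DDIT3 shares its listed locus with MARS, and the sources used here do not say whether counting used strand, so reads of these genes could have been split between them. The same holds for ATF5 with IL4I1 and NUP62, VLDLR with FLJ35024, SHMT2 with NDUFA4L2, EPRS with IARS2 and others, IARS with 2 short RNA genes, and YARS with S100PBP.

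DDIT4, an inhibitor of mTORC1 signalling listed at chr10:73703683-73705803 (hg18), took 1 direction with GNF5 and the other with the shRNAs. DDIT4 was at 973 FPKM with GNF5 against 529 with DMSO in PC9, 74.4 with GNF5 against 30.2 with DMSO in PC9M, and 66.3 with GNF5 against 39.3 with DMSO in H358. DDIT4 in the shRNA pairs was at 117 FPKM with the ABL1/ABL2 shRNAs against 173 with scrambled shRNA in PC9, and 19.8 with the ABL1/ABL2 shRNAs against 40.7 with scrambled shRNA in PC9M. GNF5 libraries were the higher ones in all 3 lines, with log2 ratios of 0.88 for PC9, 1.27 for PC9M and 0.74 for H358, and shRNA libraries were the lower ones in both lines, at -0.55 for PC9 and -1.001 for PC9M.

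TRIB3 is a pseudokinase that feeds back on ATF4. TRIB3 was at 178 FPKM with GNF5 against 375 with DMSO in PC9, 89.0 with GNF5 against 41.4 with DMSO in PC9M, and 139.8 with GNF5 against 75.1 with DMSO in H358. TRIB3 in the shRNA pairs was at 88.7 FPKM with the ABL1/ABL2 shRNAs against 101 with scrambled shRNA in PC9, and 44.8 with the ABL1/ABL2 shRNAs against 60.4 with scrambled shRNA in PC9M. It was lower with GNF5 in PC9 and higher in PC9M and H358, with log2 ratios of -1.07 for PC9, 1.09 for PC9M and 0.89 for H358, and its shRNA ratios were -0.19 for PC9 and -0.42 for PC9M.

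SESN2, a leucine sensor that restrains mTORC1, was at 6.31 FPKM with GNF5 against 21.7 with DMSO in PC9, 7.41 with GNF5 against 2.76 with DMSO in PC9M, and 14.0 with GNF5 against 12.2 with DMSO in H358. SESN2 in the shRNA pairs was at 3.98 FPKM with the ABL1/ABL2 shRNAs against 6.98 with scrambled shRNA in PC9, and 3.66 with the ABL1/ABL2 shRNAs against 6.80 with scrambled shRNA in PC9M. Log2 ratios for SESN2 were -1.64 for PC9, 1.16 for PC9M and 0.19 for H358 with GNF5 and -0.68 for PC9 and -0.74 for PC9M with the shRNAs, so it was lower in 3 pairs and higher in 2.

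STC2, a secreted glycoprotein raised by stress of the endoplasmic reticulum, was at 114 FPKM with GNF5 against 262 with DMSO in PC9, 29.1 with GNF5 against 11.7 with DMSO in PC9M, and 77.3 with GNF5 against 49.6 with DMSO in H358. STC2 in the shRNA pairs was at 56.2 FPKM with the ABL1/ABL2 shRNAs against 90.1 with scrambled shRNA in PC9, and 16.5 with the ABL1/ABL2 shRNAs against 19.8 with scrambled shRNA in PC9M. Like TRIB3, it was the lower one with GNF5 in PC9 and the higher one in PC9M and H358, with log2 ratios of -1.20 for PC9, 1.24 for PC9M and 0.63 for H358, and it was lower with the shRNAs at -0.67 for PC9 and -0.25 for PC9M.

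NUPR1, a small chromatin protein of the stress response, had the largest GNF5 ratio of any member in PC9M. NUPR1 was at 4.77 FPKM with GNF5 against 2.41 with DMSO in PC9, 6.60 with GNF5 against 0.260 with DMSO in PC9M, and 0.140 with GNF5 against 0.0410 with DMSO in H358. NUPR1 in the shRNA pairs was at 1.04 FPKM with the ABL1/ABL2 shRNAs against 0.0637 with scrambled shRNA in PC9, and 0.159 with the ABL1/ABL2 shRNAs against 0.246 with scrambled shRNA in PC9M. Log2 ratios for NUPR1 were 0.76 in PC9 and 2.59 in PC9M with GNF5. It did not reach 1 FPKM in either library of the H358 pair or of the PC9M shRNA pair, and it was not counted in those pairs.

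ATF3 and ATF5 are transcription factors of the same leucine zipper family. ATF3 was at 7.34 FPKM with GNF5 against 6.33 with DMSO in PC9, 24.4 with GNF5 against 14.2 with DMSO in PC9M, and 23.4 with GNF5 against 25.4 with DMSO in H358. ATF3 in the shRNA pairs was at 1.94 FPKM with the ABL1/ABL2 shRNAs against 2.25 with scrambled shRNA in PC9, and 5.37 with the ABL1/ABL2 shRNAs against 12.7 with scrambled shRNA in PC9M. The 2-fold difference of ATF3 lay in PC9M with the shRNAs, at -1.10, while its GNF5 ratios were 0.19 for PC9, 0.74 for PC9M and -0.11 for H358.

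ATF5 was at 6.28 FPKM with GNF5 against 15.6 with DMSO in PC9, 19.9 with GNF5 against 30.1 with DMSO in PC9M, and 5.46 with GNF5 against 8.14 with DMSO in H358. ATF5 in the shRNA pairs was at 28.8 FPKM with the ABL1/ABL2 shRNAs against 24.5 with scrambled shRNA in PC9, and 42.5 with the ABL1/ABL2 shRNAs against 31.5 with scrambled shRNA in PC9M. It was lower with GNF5 in all 3 lines, at -1.19 for PC9, -0.57 for PC9M and -0.50 for H358, and higher with the shRNAs in both, at 0.23 for PC9 and 0.42 for PC9M, and was the member of the stress group that lay lowest with GNF5 in PC9M and H358. The other stress factors, CEBPB, CEBPG and the lipoprotein receptor VLDLR, differed by less than 2-fold on FPKM + 1 in all 5 pairs. CEBPG, a dimer partner of ATF4, came nearest, at -0.96 for PC9, 0.87 for PC9M and 0.84 for H358 with GNF5. Over the 13 stress factors 5 were at least 2-fold lower in PC9 and 7 at least 2-fold higher in PC9M with GNF5, and their median ratios were -0.66 for PC9, 1.09 for PC9M and 0.27 for H358.

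**Figure D2:**
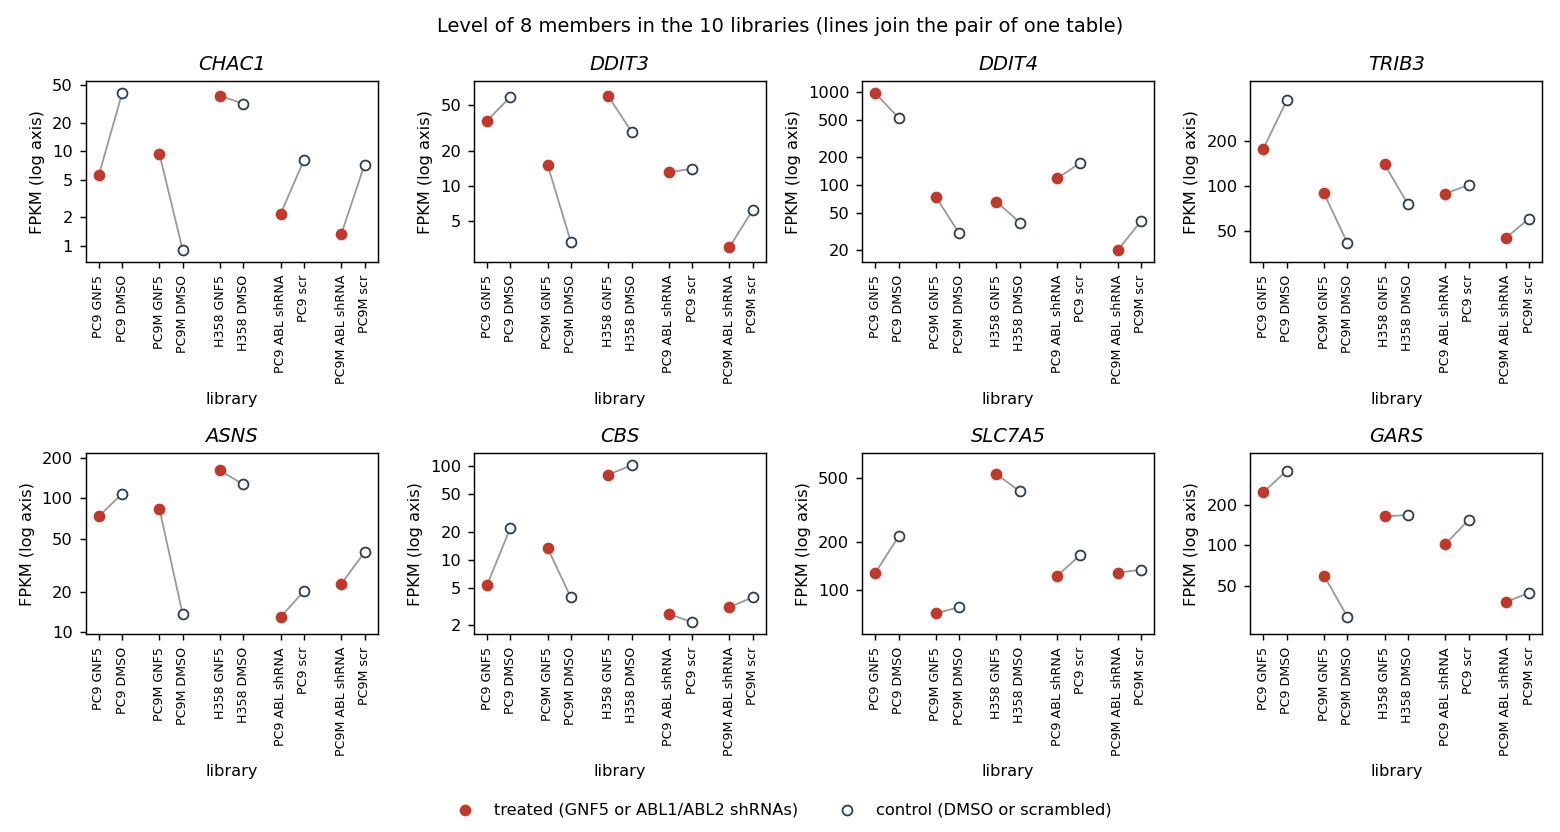
FPKM (log axis) of 8 members in the 10 libraries, filled points for GNF5 or ABL1/ABL2 shRNAs and open points for DMSO or scrambled shRNA ("scr"), with lines joining the pair of 1 table; there is 1 library per point and no error bar can be drawn. For CHAC1, PC9 had 5.61 FPKM with GNF5 and 41.2 with DMSO, and PC9M had 9.41 with GNF5 and 0.906 with DMSO.

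The median of the amino acid enzymes had the direction of the stress factor median in every GNF5 pair. ASNS, PCK2 and CBS had the highest enzyme ratios in PC9M, while CBS was the lowest enzyme in PC9. In H358, CBS and PCK2 were lower with GNF5. ASNS, asparagine synthetase, is listed at chr7:97319365-97339790 (hg18). ASNS in the GNF5 pairs was at 73.5 FPKM with GNF5 against 108 with DMSO in PC9, 83.8 with GNF5 against 13.5 with DMSO in PC9M, and 162 with GNF5 against 127 with DMSO in H358. ASNS in the shRNA pairs was at 12.9 FPKM with the ABL1/ABL2 shRNAs against 20.1 with scrambled shRNA in PC9, and 22.8 with the ABL1/ABL2 shRNAs against 39.4 with scrambled shRNA in PC9M. Its log2 ratio of 2.55 in PC9M was the highest of the enzymes, beside -0.55 in PC9 and 0.35 in H358, and the shRNA ratios were -0.61 for PC9 and -0.76 for PC9M.

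CBS and CTH catalyse the successive steps that turn homocysteine into cysteine. CBS was at 5.34 FPKM with GNF5 against 21.9 with DMSO in PC9, 13.3 with GNF5 against 3.94 with DMSO in PC9M, and 81.3 with GNF5 against 103 with DMSO in H358. CBS in the shRNA pairs was at 2.63 FPKM with the ABL1/ABL2 shRNAs against 2.14 with scrambled shRNA in PC9, and 3.10 with the ABL1/ABL2 shRNAs against 3.97 with scrambled shRNA in PC9M. Its log2 ratios were -1.85 for PC9, 1.53 for PC9M and -0.33 for H358 with GNF5, and its listed level in H358 was above that in every PC9 and PC9M library, in tables scaled apart.

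CTH was at 23.1 FPKM with GNF5 against 51.7 with DMSO in PC9, 6.07 with GNF5 against 2.45 with DMSO in PC9M, and 38.0 with GNF5 against 32.4 with DMSO in H358. CTH in the shRNA pairs was at 5.69 FPKM with the ABL1/ABL2 shRNAs against 6.75 with scrambled shRNA in PC9, and 2.06 with the ABL1/ABL2 shRNAs against 4.46 with scrambled shRNA in PC9M. It was lower in PC9 and higher in PC9M with GNF5, at -1.13 and 1.03, and the H358 ratio was 0.22.

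PSAT1, the aminotransferase of the serine pathway, was at 82.1 FPKM with GNF5 against 194 with DMSO in PC9, 156 with GNF5 against 67.5 with DMSO in PC9M, and 194 with GNF5 against 199.8 with DMSO in H358. PSAT1 in the shRNA pairs was at 53.2 FPKM with the ABL1/ABL2 shRNAs against 72.7 with scrambled shRNA in PC9, and 95.2 with the ABL1/ABL2 shRNAs against 108 with scrambled shRNA in PC9M. The GNF5 ratios of PSAT1 were -1.23 for PC9, 1.20 for PC9M and -0.04 for H358. Its pathway neighbours did not keep step with it, since PHGDH, which precedes PSAT1, stood at -0.10 for PC9, 0.63 for PC9M and -0.10 for H358 and PSPH, which follows it, at -0.98 for PC9, -0.44 for PC9M and -0.17 for H358.

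PCK2, the mitochondrial form of phosphoenolpyruvate carboxykinase, was at 25.7 FPKM with GNF5 against 63.0 with DMSO in PC9, 34.1 with GNF5 against 9.11 with DMSO in PC9M, and 30.4 with GNF5 against 34.8 with DMSO in H358. PCK2 in the shRNA pairs was at 11.8 FPKM with the ABL1/ABL2 shRNAs against 14.0 with scrambled shRNA in PC9, and 10.99 with the ABL1/ABL2 shRNAs against 15.7 with scrambled shRNA in PC9M. It had log2 ratios of -1.26 for PC9, 1.79 for PC9M and -0.19 for H358 with GNF5, lower in PC9 and higher in PC9M.

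GPT2, the mitochondrial alanine aminotransferase, was at 20.6 FPKM with GNF5 against 46.7 with DMSO in PC9, 20.3 with GNF5 against 13.3 with DMSO in PC9M, and 64.2 with GNF5 against 44.1 with DMSO in H358. GPT2 in the shRNA pairs was at 10.2 FPKM with the ABL1/ABL2 shRNAs against 16.6 with scrambled shRNA in PC9, and 15.0 with the ABL1/ABL2 shRNAs against 14.9 with scrambled shRNA in PC9M. Its 2-fold difference lay in PC9 with GNF5, at -1.14, and the PC9M and H358 ratios were 0.58 and 0.53.

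The folate enzyme MTHFD2 had the highest mean level of the enzymes. MTHFD2 was at 138 FPKM with GNF5 against 204 with DMSO in PC9, 115 with GNF5 against 70.6 with DMSO in PC9M, and 277 with GNF5 against 241 with DMSO in H358. MTHFD2 in the shRNA pairs was at 59.0 FPKM with the ABL1/ABL2 shRNAs against 89.3 with scrambled shRNA in PC9, and 78.6 with the ABL1/ABL2 shRNAs against 78.1 with scrambled shRNA in PC9M. Its ratios stayed within 2-fold, at -0.56 for PC9, 0.70 for PC9M and 0.20 for H358 with GNF5. ALDH18A1 and PYCR1, which make proline, stood apart from the other enzymes in PC9 as the enzymes higher with GNF5, at 0.98 and 0.30. Over the 12 enzymes 5 were at least 2-fold lower in PC9 and 5 at least 2-fold higher in PC9M, and the medians were -0.84 for PC9, 0.80 for PC9M and 0.11 for H358. PHGDH, PSPH, SHMT2, MTHFD2, ALDH18A1 and PYCR1 were within 2-fold on FPKM + 1 in all 5 pairs.

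Transporters had a smaller median GNF5 ratio than the enzymes in PC9M. All 6 were lower with GNF5 in PC9, with ratios between -2.17 and -0.34 and a median of -0.63, while the medians were 0.25 in PC9M and 0.14 in H358. SLC1A4, a neutral amino acid carrier, was the member past 2-fold. SLC1A4 was at 0.701 FPKM with GNF5 against 6.63 with DMSO in PC9, 3.43 with GNF5 against 1.93 with DMSO in PC9M, and 11.6 with GNF5 against 7.27 with DMSO in H358. SLC1A4 in the shRNA pairs was at 2.01 FPKM with the ABL1/ABL2 shRNAs against 2.52 with scrambled shRNA in PC9, and 2.92 with the ABL1/ABL2 shRNAs against 2.93 with scrambled shRNA in PC9M. The PC9 GNF5 library was the lowest of the 10 and gave a ratio of -2.17, against 0.60 in PC9M and 0.61 in H358.

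SLC3A2, the heavy chain that escorts SLC7A5 and other light chains to the membrane, had the highest mean level of the transporters. SLC3A2 was at 188 FPKM with GNF5 against 258 with DMSO in PC9, 107 with GNF5 against 98.3 with DMSO in PC9M, and 460.2 with GNF5 against 409 with DMSO in H358. SLC3A2 in the shRNA pairs was at 149 FPKM with the ABL1/ABL2 shRNAs against 197 with scrambled shRNA in PC9, and 132 with the ABL1/ABL2 shRNAs against 156 with scrambled shRNA in PC9M. Its ratios, -0.46 for PC9, 0.11 for PC9M and 0.17 for H358 with GNF5, ran beside those of its partner SLC7A5, the large neutral amino acid carrier, at -0.75 for PC9, -0.13 for PC9M and 0.36 for H358. The cationic carrier SLC7A1 had the highest shRNA ratios of the transporters, at 0.61 for PC9 and 0.86 for PC9M, while the glutamine carrier SLC1A5 stood at -0.41 for PC9 and -0.02 for PC9M and SLC38A2 at 0.33 for PC9 and 0.09 for PC9M.

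The tRNA synthetases, which load amino acids onto their tRNAs, lay on opposite sides of DMSO in PC9 and PC9M. In PC9, 10 of the 11 were lower with GNF5, YARS at 0.09 being the exception, and 3 were at least 2-fold lower. In PC9M all 11 were higher with GNF5, between 0.16 for NARS and 0.98 for GARS, and 0 reached 2-fold on FPKM + 1. The medians were -0.77 for PC9, 0.70 for PC9M and 0.08 for H358. The authors' deposited table marks the YARS estimate as failed in PC9 with GNF5, though a level is listed.

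WARS, the tryptophan enzyme, was at 35.1 FPKM with GNF5 against 92.3 with DMSO in PC9, 49.9 with GNF5 against 27.7 with DMSO in PC9M, and 136 with GNF5 against 143 with DMSO in H358. WARS in the shRNA pairs was at 26.9 FPKM with the ABL1/ABL2 shRNAs against 34.4 with scrambled shRNA in PC9, and 34.3 with the ABL1/ABL2 shRNAs against 39.3 with scrambled shRNA in PC9M. The GNF5 ratios of WARS were -1.37 for PC9, 0.83 for PC9M and -0.08 for H358, the lowest of the 11 in PC9.

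MARS, the methionine enzyme, was at 49.3 FPKM with GNF5 against 112 with DMSO in PC9, 54.5 with GNF5 against 37.3 with DMSO in PC9M, and 139.9 with GNF5 against 132 with DMSO in H358. MARS in the shRNA pairs was at 40.4 FPKM with the ABL1/ABL2 shRNAs against 49.3 with scrambled shRNA in PC9, and 43.6 with the ABL1/ABL2 shRNAs against 43.5 with scrambled shRNA in PC9M. MARS stood at -1.17 for PC9, 0.54 for PC9M and 0.08 for H358 with GNF5.

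IARS, the isoleucine enzyme, was at 53.6 FPKM with GNF5 against 119 with DMSO in PC9, 101 with GNF5 against 71.4 with DMSO in PC9M, and 141 with GNF5 against 132 with DMSO in H358. IARS in the shRNA pairs was at 62.9 FPKM with the ABL1/ABL2 shRNAs against 63.3 with scrambled shRNA in PC9, and 77.0 with the ABL1/ABL2 shRNAs against 73.6 with scrambled shRNA in PC9M. IARS stood at -1.14 for PC9, 0.49 for PC9M and 0.10 for H358 with GNF5, and its shRNA ratios were -0.01 for PC9 and 0.06 for PC9M.

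GARS, the glycine enzyme, had the highest mean level of the group. GARS was at 248 FPKM with GNF5 against 356 with DMSO in PC9, 59.98 with GNF5 against 29.8 with DMSO in PC9M, and 164 with GNF5 against 168 with DMSO in H358. GARS in the shRNA pairs was at 102 FPKM with the ABL1/ABL2 shRNAs against 154 with scrambled shRNA in PC9, and 38.3 with the ABL1/ABL2 shRNAs against 44.7 with scrambled shRNA in PC9M. It had a ratio of 0.98 in PC9M with GNF5, where both transduced PC9M libraries lay between its GNF5 and DMSO levels. The other synthetases, AARS, CARS, EPRS, NARS, SARS, TARS and YARS, were within 2-fold in all 5 pairs.

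Synthetases outside the member list had other medians. The 9 other cytosolic synthetase genes had median GNF5 ratios of -0.11 for PC9, -0.34 for PC9M and -0.12 for H358, with 5 of 9 lower in PC9 and 2 of 9 higher in PC9M. The 17 mitochondrial synthetases had medians of 0.00 for PC9, -0.19 for PC9M and -0.23 for H358. Of the 9 other cytosolic synthetase genes 0 were 2-fold apart in any of the 5 pairs. These lists share libraries with the members, and the counts describe them without a test of the difference. Members and lists were chosen with earlier results of these data known, so the contrast is no independent evidence about ATF4 targets.

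**Figure D3:**
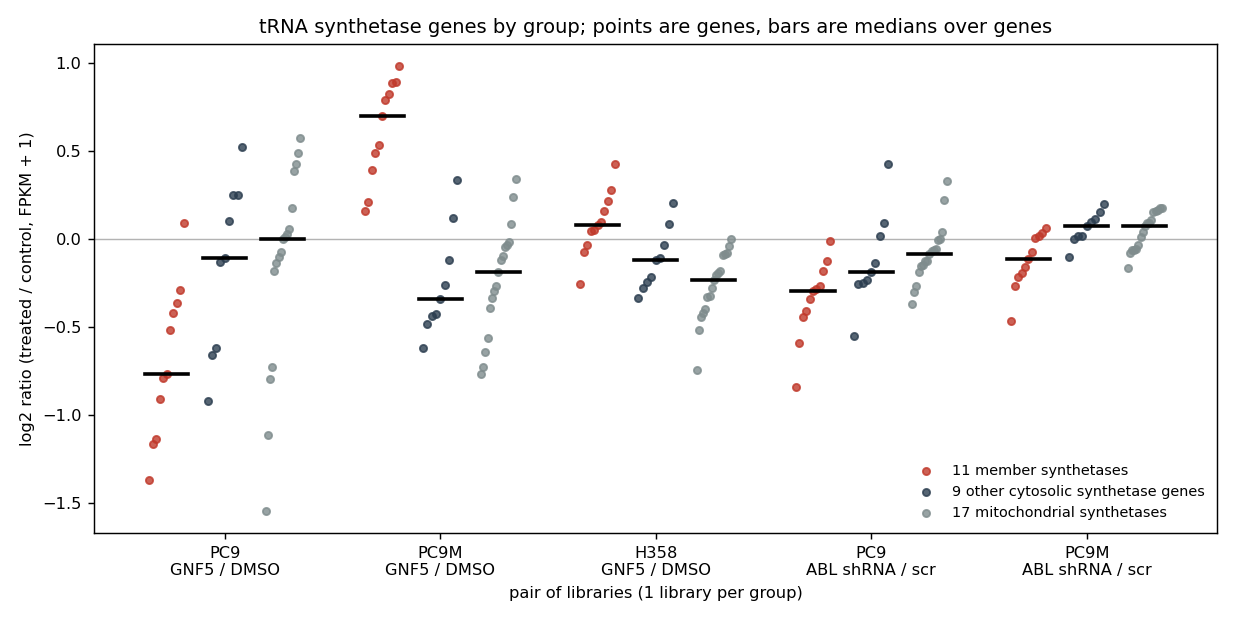
Log2 ratio of (FPKM + 1), treated over control, for the 11 member synthetases, the 9 other cytosolic and the 17 mitochondrial ones in the 5 pairs; each point is 1 gene and the bar is the median. With GNF5 the member medians were -0.77 in PC9 and 0.70 in PC9M, against -0.11 in PC9 and -0.34 in PC9M for the other cytosolic synthetases. The lists were chosen with earlier results of these data known.

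Genes upstream of ATF4 and neighbours of the set were read from lists of known pathway genes. Of 17 genes of the eIF2 pathway 0 were 2-fold apart on FPKM + 1 in any of the 5 pairs. Their median GNF5 ratios were 0.06 for PC9, -0.01 for PC9M and 0.15 for H358. The eIF2 kinase EIF2AK3, named here after its values were seen, was higher with GNF5 in all 3 lines, at 0.67 for PC9, 0.64 for PC9M and 0.97 for H358. PPP1R15A, which restores eIF2 activity and was likewise named after its values were seen, stood at 0.85 for PC9, 0.69 for PC9M and 0.38 for H358.

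Among 18 other ATF4 targets the median GNF5 ratios were -0.42 for PC9, 0.61 for PC9M and 0.17 for H358. In PC9, 4 of them were at least 2-fold lower and 2 at least 2-fold higher, and in PC9M 4 of 17 were at least 2-fold higher. The secreted factor GDF15 was at least 2-fold higher with GNF5 in PC9M, at 2.30, and in H358, at 1.26, and KLHL24 was so in PC9, at 1.20, and in PC9M, at 1.002. Other amino acid enzymes had medians of -0.05 for PC9, -0.10 for PC9M and -0.20 for H358. Glutamine synthetase GLUL was at least 2-fold lower with GNF5 in H358, at -1.29, and argininosuccinate synthase ASS1 at least 2-fold higher with the shRNAs in PC9, at 1.60. Other amino acid transporters that reached 1 FPKM had a median of -0.96 in PC9, where 6 of 12 were at least 2-fold lower with GNF5, and of -0.46 in PC9M and -0.25 in H358. Lower transporter levels in PC9 were therefore also seen outside the set, and SLC36A1, a lysosomal carrier, was 2-fold apart in 2 pairs, at -1.09 with GNF5 and 1.06 with the shRNAs in PC9.

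With the ABL1/ABL2 shRNAs more members were lower than higher, by small amounts, and so were more genes overall. In PC9, 35 of 42 were lower with the ABL1/ABL2 shRNAs than with scrambled shRNA and 7 were higher, where 62.3% of all genes were lower, with a median of -0.29 beside -0.09 over all genes. In PC9M, 28 of the 41 that reached 1 FPKM were lower and 13 higher, where 51.9% of all genes were lower, with a median of -0.11 beside -0.01 over all genes. In PC9 the 2-fold count was 0 higher and 1 lower, CHAC1, where 1.21% of all genes were higher and 1.92% lower. In PC9M it was 0 higher and 3 lower, CHAC1, ATF3 and DDIT4, where 1.01% of all genes were higher and 0.808% lower. DDIT4 at -1.001 lay on the limit and DDIT3 at -0.86 just short of it, and in PC9 NUPR1 came nearest on the other side at 0.94. Centring the pair on the median of all genes gave 1 higher and 1 lower in PC9, and 0 higher and 2 lower in PC9M.

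By role, the shRNA medians in PC9 were -0.31 for stress factors, -0.25 for enzymes, -0.31 for transporters and -0.29 for synthetases. In PC9M they were -0.34 for stress factors, -0.12 for enzymes, -0.01 for transporters and -0.11 for synthetases. All 11 member synthetases were lower in PC9, with CARS, the cysteine enzyme, lowest at -0.84, and 6 of the 9 other cytosolic ones were lower too, with a median of -0.19. In PC9M 7 of 11 member synthetases were lower, and 7 of the 9 other cytosolic ones were higher. In both lines together 26 of 41 members were lower with the shRNAs, against 40.0% of all genes. DDIT4 and CHAC1 were at least 2-fold higher with GNF5 and at least 2-fold lower with the shRNAs in PC9M, which 23 of 11883 genes did, or 0.194%.

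Levels were next set side by side across tables, which the authors scaled apart, so they are descriptions without a test. Between the DMSO libraries the set was lower in PC9M: 39 of 42 members were lower in PC9M with DMSO than in PC9 with DMSO, 31 by 2-fold or more, and the median was -1.54 beside 0.14 over all genes. Of all genes 46.1% were lower there, 19.8% by 2-fold or more. Stress factors stood at -2.47, enzymes at -1.63, transporters at -1.38 and synthetases at -1.70, against 0.00 for the 9 other cytosolic synthetase genes. Between the GNF5 libraries 19 members were higher and 23 lower in PC9M than in PC9, where 44.0% of all genes were lower, with a median of -0.06 beside 0.20 over all genes. H358 with DMSO was higher than PC9M with DMSO for 37 of 41 members, 23 by 2-fold or more, the median being 1.55 beside 0.25 over all genes. Of all genes 60.2% were higher there, 23.5% by 2-fold or more. The median of H358 with DMSO over PC9 with DMSO was -0.29, beside 0.43 over all genes.

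Between the scrambled libraries of these lines the split was nearer to even. PC9M with scrambled shRNA had 18 members higher and 23 lower than PC9 with scrambled shRNA, 2 of them higher and 8 lower by 2-fold or more, and the median was -0.14. The counts of lower members are close to the background, since 51.8% of all genes were lower there, 18.5% by 2-fold or more. The share of members higher by 2-fold or more was below that of all genes, which was 15.7%. Within PC9 the scrambled library was lower than the DMSO library for 39 of 42 members, 28 by 2-fold or more, and the median was -1.28 beside 0.17 over all genes and 0.46 over the 9 other cytosolic synthetase genes. Of all genes 39.7% were lower there, 7.53% by 2-fold or more. Within PC9M the scrambled library was higher than the DMSO library for 33 of 41 members, 3 by 2-fold or more, and the median was 0.22. Of all genes 47.9% were higher there, 1.60% by 2-fold or more. The PC9 DMSO library was the highest of the 4 PC9 libraries for 31 of 42 members, and the PC9M GNF5 library the highest of the 4 PC9M libraries for 35 of 42. PC9M with DMSO was the lowest of its line for 23 members. These ranks cross tables scaled apart and were not counted over all genes, so they cannot be read as a trait of the set. The GNF5 ratios and these comparisons share the DMSO libraries, and what sets the controls of 1 line apart was not tested.

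**Figure D4:**
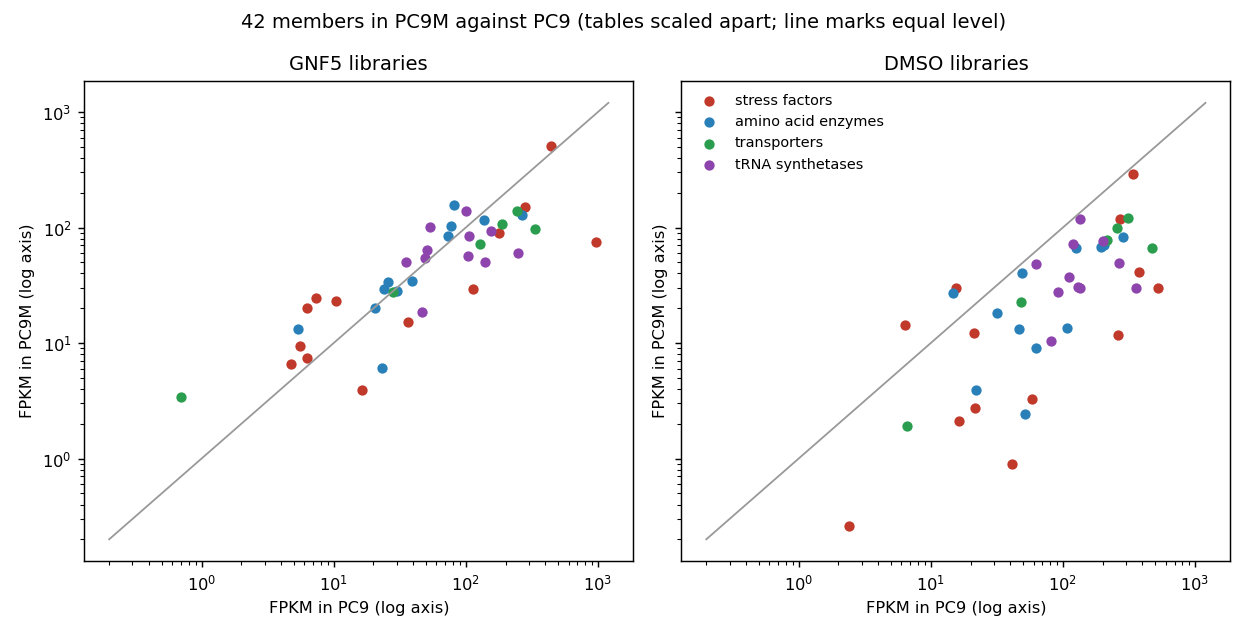
FPKM of the 42 members in PC9M (vertical, log axis) against PC9 (horizontal, log axis), in the GNF5 libraries on the left and the DMSO libraries on the right, coloured by role; the line marks equal level and the tables were scaled apart. Members lie on both sides of the line with GNF5, 19 higher and 23 lower in PC9M, and 39 of 42 lie below it with DMSO.

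Across lines, limma fitted to the 5 ratios of every gene called 0 of the 42 members in each of its 3 contrasts at an adjusted p of 0.05. For GNF5 over 3 lines it called 1 of 13885 genes, or 0.00720%, for the shRNAs over 2 lines 0% and for the difference between GNF5 and shRNAs 0%. At an unadjusted p under 0.05 stood 5 members for GNF5, beside 16.99% of all genes, 2 for the shRNAs, beside 4.29%, and 2 for the difference, beside 8.19%. With no replicate cultures, the spread behind these p-values mixes differences between lines, GNF5 doses, cultures and libraries, which cannot be told apart. The PC9 GNF5 pair had already been seen to lie opposite to PC9M, and without it 15 members (35.7%) stood there for GNF5, beside 17.9% of all genes. The numbers were then 8 (19.0%) for the shRNAs, beside 8.51%, and 18 (42.9%) for the difference, beside 14.2%. All ratios of a gene share an estimate of the spread, so the shRNA numbers changed here with the shRNA ratios unchanged. Leaving out a pair already seen to lie opposite gives no independent evidence about the members. Leaving out the PC9M GNF5 pair gave 4 members (9.52%) for GNF5, beside 15.3% of all genes. Leaving out the H358 GNF5 pair gave 5 (11.9%), beside 12.7%. Without the PC9 or the PC9M shRNA pair the GNF5 number was 3 members, beside 10.2% of all genes.

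DDIT4 had the smallest limma p of the members in all 3 contrasts. Its mean GNF5 ratio was 0.96 (SE 0.158), higher in 3 of 3 lines, with limma's adjusted p = 0.242. Its mean shRNA ratio was -0.78 (SE 0.193), lower in 2 of 2 lines, with limma's adjusted p = 0.925. The difference between them was 1.74 (SE 0.250), with limma's adjusted p = 0.543. ATF5 stood at -0.75 with GNF5 (SE 0.169), lower in 3 of 3 lines, with limma's adjusted p = 0.242, and SLC7A1 at 0.73 with the shRNAs (SE 0.270), higher in 2 of 2 lines, with limma's adjusted p = 1. The mean GNF5 ratio of CHAC1 was 0.02 (SE 0.882), the opposite values of PC9 and PC9M leaving a mean near 0 with a wide error, with limma's adjusted p = 0.994.

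The authors' deposited tables carry a test of 1 library against 1 for each pair, which cannot measure variation between cultures of a group. How that test estimated its spread is not given in the sources used here. By that test 5 of 42 members had a q under 0.05 in PC9M with GNF5, beside 0.301% of all genes. In the authors' deposited table these were NUPR1 (q = 6.47e-12), ASNS (q = 1.85e-05), CHAC1 (q = 0.000214), PCK2 (q = 0.00396) and CBS (q = 0.0139). In PC9M with the shRNAs 4 members had one, beside 0.572% of all genes. The authors' deposited table gives CHAC1 (q = 0.000101), ATF3 (q = 0.00153), DDIT4 (q = 0.00303) and SLC7A1 (q = 0.0182) there. In PC9 with GNF5, in H358 with GNF5 and in PC9 with the shRNAs the authors' deposited tables list 0 members with a q under 0.05. The shares of all genes were 0.159% in PC9 with GNF5, 0.461% in H358 with GNF5 and 0.435% in PC9 with the shRNAs.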

How the data were processed

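RNA of 10 cultures was sequenced, and the authors deposited 1 table for each of 5 pairs of libraries. TopHat, Cuffdiff and the build hg18 are named in the submitters' processing notes, with versions and gene annotation not given in the sources used here. The deposited values are FPKM for both libraries of a pair, scaled by the authors within that table. The tables also hold the authors' p-values and q-values of 1 library against 1. In the H358 table the sample name of the GNF5 library does not follow that of the DMSO library, and any library between them was not analysed here. Read depth is unknown: low FPKM values show no clear steps in PC9, and no counting interval can be given.

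Tables were joined by symbol, with 28 date-like entries in each left out, which gave 23234 genes. Ratios are log2 of FPKM with a pseudocount of 1, treated over control, among genes with at least 1 FPKM in either library of the pair. A difference of at least 2-fold was counted. limma 3.58.1 in R 4.3.3 was fitted to the 5 ratios of 13885 genes with GNF5 or shRNA as the factor. It used a prior trended on level and Benjamini-Hochberg adjustment at 0.05. A run on simulated ratios, with the same shift in all 5 pairs, checked the size of the estimates. That run did not cover shifts that oppose each other between lines. Genes entered when 2 or more of the libraries held 1 FPKM. With 1 library per group, the spread behind the p-values cannot be split into differences between lines, GNF5 doses, cultures and libraries. Alternatives were other pseudocounts, other minimum levels, centring, an untrended prior, each pair left out in turn and a block by cell line. Levels are given per library for each member at least 2-fold apart in any pair and for the highest of each role. Members and lists were chosen with earlier results of these data known.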

Additional observations from a re-analysis of the deposited data

Results flagged for a closer look

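Effects under the same contrast took opposite directions in different lines, or under different perturbations of 1 line, for the genes below. Each group had 1 library, so none of these differences was tested, and the values are differences of log2 ratios.

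GNF5 stood on opposite sides of DMSO in PC9 and PC9M for 8 members, each at least 2-fold. The ratio in PC9 minus that in PC9M was -5.124 for CHAC1, -3.383 for CBS and -3.055 for PCK2. These 3 are a glutathione-degrading enzyme, a cysteine pathway enzyme and a gluconeogenic enzyme. It was -2.798 for SESN2, -2.446 for STC2 and -2.433 for PSAT1. The smallest were TRIB3 at -2.156 and CTH at -2.163. GNF5 was at 10 mM in PC9 and at 20 mM in PC9M, as labelled, so line and dose cannot be told apart. In PC9M with DMSO 31 of 42 members were also at least 2-fold lower than in PC9 with DMSO, beside 19.8% of all genes, across tables scaled apart, and the part of the DMSO libraries in these differences was not tested.

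In PC9M the GNF5 and shRNA ratios took opposite directions for 2 members, each at least 2-fold. The GNF5 ratio minus the shRNA ratio was 4.272 for CHAC1 and 2.273 for DDIT4. The DMSO and scrambled libraries of PC9M differed as well for CHAC1, which was at 7.23 FPKM with scrambled shRNA and at 0.906 with DMSO, in tables scaled apart.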

How the results depend on the processing

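The counts of members at least 2-fold apart were recomputed under 5 alternatives, and 41 of 50 stayed within 1.5 times. A pseudocount of 0.1 FPKM gave 1 member at least 2-fold higher in PC9 and 1 in H358 with GNF5. It gave 1 higher in PC9 and 5 lower in PC9M with the shRNAs. It also gave 16 lower in PC9 and 13 higher in PC9M with GNF5, within 1.5 times of the main counts. With a pseudocount of 5 FPKM, which compresses low genes by construction, those lower with the shRNAs were 0 in PC9 and 0 in PC9M. Centring each pair on its median gave members at least 2-fold higher of 1 in PC9 with GNF5, 3 in H358 with GNF5 and 1 in PC9 with the shRNAs. Of the 100 recomputed medians of role groups, 99 stayed within the median absolute deviation of all genes, and 0 changed sign. The exception was the median of stress factors in PC9M with GNF5, at 0.78 with a pseudocount of 5 FPKM. limma called 0 members in each of 12 alternatives for each contrast. Its smallest adjusted p over members ranged between 0.163 and 0.483 for GNF5, between 0.405 and 1 for the shRNAs and between 0.230 and 1.00 for the difference. With cell line as a replicate block, limma called 0 members in each of the 3 contrasts. Libraries share no replicate numbers that pair samples beyond their line. Without depth or replicates, no error can be set on the level of a low gene such as NUPR1 or SLC1A4.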
